A study of Mus musculus with 6 samples.

Results

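The 36 genes described here mark the nephron downstream of the proximal tubule: the thick ascending limb of the loop of Henle (4 genes), the distal convoluted and connecting tubule (9 genes), and the principal cells (11 genes) and intercalated cells (12 genes) of the collecting duct. The rule that chose them is a list of names and uses no measured value, though it was drawn up with earlier results of these data known, and all 36 were found among the 24035 rows of the table that carry a gene symbol. Segments were assigned from textbook knowledge, and some genes, such as Fxyd2 and Tfcp2l1, are active in more than 1 segment. The RNA came from glomeruli pulled by magnet out of digested FVB/N mouse kidneys that had been perfused with iron oxide. The 3 control libraries came from Klf4 fl/fl mice, and the 3 knockout libraries from Podocin-Cre Klf4 fl/fl mice, in which Cre is driven by the promoter of podocin, a podocyte protein. Both groups carry the floxed alleles and neither was treated, and no group carries Cre alone, so the presence of Cre and the loss of Klf4 cannot be told apart. The sources used here give neither the ages nor the number of animals behind a library, so p-values measure only the spread between libraries, which may be technical in part.

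These segments reabsorb salt, divalent cations and water that the proximal tubule leaves behind, and set the acidity of the urine. The thick ascending limb takes up sodium chloride without water, the distal tubule adjusts sodium, calcium and magnesium, principal cells respond to aldosterone and vasopressin, and intercalated cells secrete acid or base. None of these cells belongs to the glomerulus, and the podocin promoter does not mark them. In such bulk RNA, more cells of a type and more RNA per cell cannot be told apart.

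Counted reads ranged from 38936993 to 58272424 per library, and correlations of log2 values between libraries were 0.969 to 0.981 within a group and 0.891 to 0.949 between groups. In RPKM, a read count scaled to gene length and to the counted reads of the library, Klf4 stood at 21.5, 44.3 and 49.8 in controls and 29.4, 40.3 and 41.4 in knockouts (always in the order of replicates 1 to 3). Its log2 change was 0.015 (SE 0.31, limma adjusted p = 0.979, exact permutation p = 1). Since Cre acts in podocytes and the deleted exons are unknown, this whole-gene value does not check the labels. The Y-linked gene Ddx3y stood at 34.2 to 67.9 RPKM in all 6 libraries, with Xist at no more than 0.0343 RPKM. Of 17 podocyte markers, 9 were lower and 0 higher in knockouts, with summed levels of 3779 to 6834 RPKM in controls and 1381 to 2861 RPKM in knockouts and no marker at 0. Leukocyte markers were higher in 14 of 15 cases (summed 102 to 108 against 710 to 1644 RPKM, with no gene at 0), and tubule injury genes in 15 of 16 (594 to 712 against 2715 to 5947 RPKM). Krt20 of the injury list was at 0 in control replicate 2. Over all genes tested, 1389 were higher and 484 lower, against 996 and 789 with median scaling and 849 and 798 with quantile normalization.

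Only a few of the 36 genes passed the test of knockout against control. Trpv5, the apical calcium channel of the distal tubule, and Tfcp2l1, a transcription factor of the collecting duct, were higher, and Slc26a7, an anion exchanger of intercalated cells, was lower. The other 33 did not pass. That is 8.33% of the members, against 13.5% of the 13912 genes tested, and in each direction the members' shares of 5.56% higher and 2.78% lower sit beside 9.98% and 3.48% of all genes. All 36 members passed the filter of a mean of 0.5 RPKM, and the test was limma on log2(RPKM + 0.5) with p adjusted over all genes tested. An unadjusted p under 0.05 was reached by 19 of 36 members, against 30.6% of all genes. The count of higher members was 0 without control replicate 2, knockout replicate 1 or knockout replicate 2, where 6.53%, 6.77% and 3.43% of all genes were higher. It was 3 of 36 without control replicate 1, with 6.03% of all genes higher. Without knockout replicate 3 it was 15 of 36, with 10.8% of all genes (1497 of 13868) higher. With a proximal tubule score as covariate it was 13 of 36, where 13.9% of all genes (1931 of 13912) were higher.

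**Figure D1:**
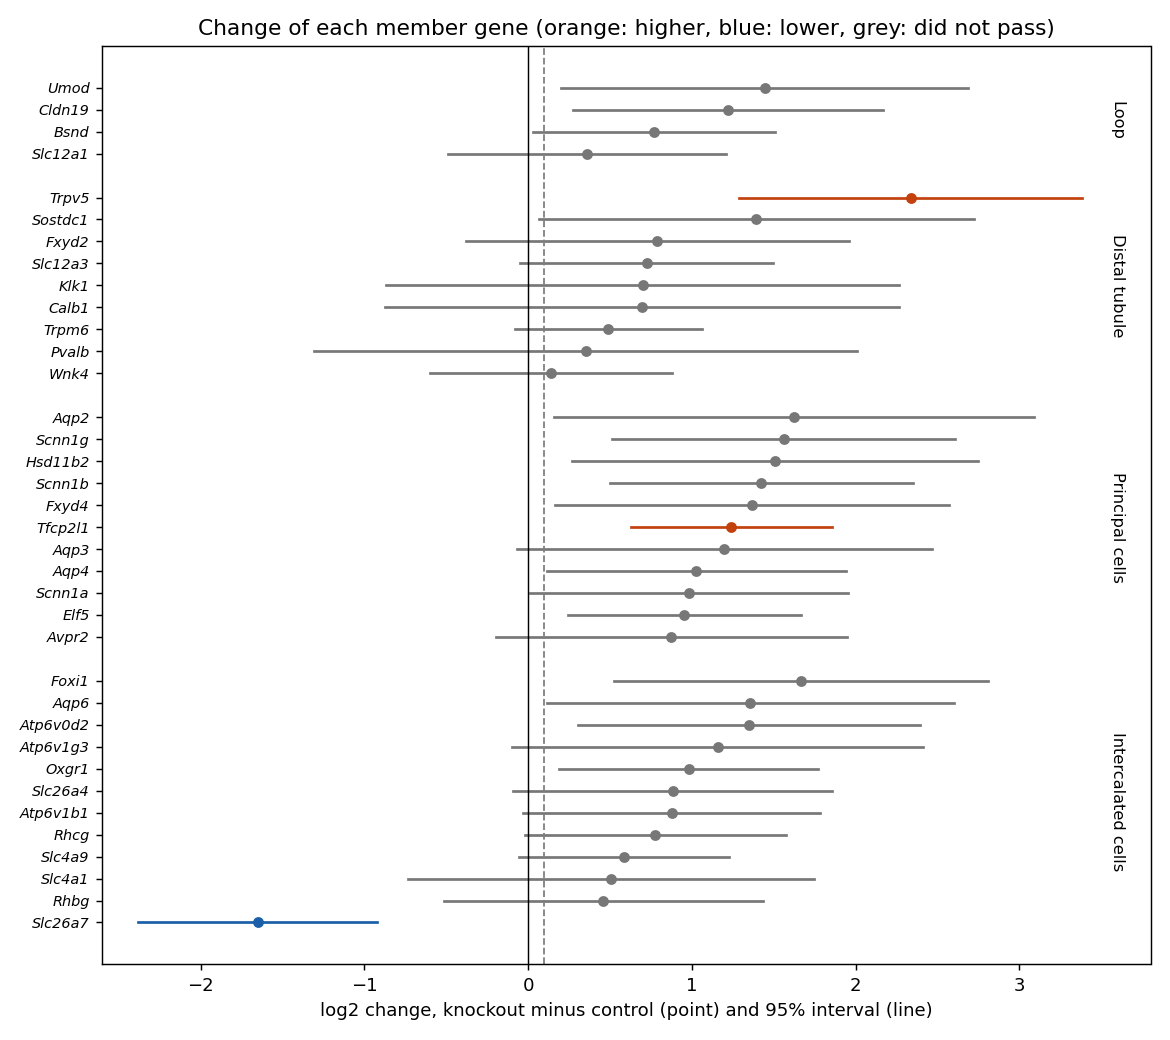
Log2 change of each of the 36 genes, knockout minus control, as a point with its 95% interval as a line, grouped by segment. The solid line marks 0 and the dashed line the median over all genes tested, 0.097; Trpv5 and Tfcp2l1 (orange) and Slc26a7 (blue) passed the test, and Slc26a7 alone lies left of 0.

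The estimated changes were mostly positive even where they did not pass. The log2 change was above 0 for 35 of 36 members, or 97.2%, against 60.8% of all genes tested, and its median was 0.97 against 0.097. The median was 0.99 in the loop, 0.70 in the distal tubule, 1.24 in principal cells and 0.88 in intercalated cells, and median scaling or quantile normalization of the libraries put the median over all members at 0.83 or 0.74. Without control replicate 2 the median was 0.65 over all members, 0.62 in the loop, 0.23 in the distal tubule, 0.83 in principal cells and 0.55 in intercalated cells. The distal tubule median also went to 1.16 without control replicate 3, to 0.42 without knockout replicate 1, to 1.055 without knockout replicate 3 and to 0.45 with a proximal tubule score as covariate. Groups did not overlap for 9 members (25%, against 35.1% of all genes tested). All knockout libraries were higher for 8 of them and all lower for 1, directions that held for 23.7% and 11.4% of all genes.

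Libraries of the same group differed widely, and the lowest library of each group was nearly always the same one. Control replicate 2 was the lowest control for 35 of 36 members, and knockout replicate 3 was the lowest knockout for all 36. Knockout replicates 1 and 2 both stood above every control for 30 members, whereas knockout replicate 3 lay within the range of the controls for 27, above it for 8 and below it for 1. These library orders were not counted over all genes tested, where all 3 knockouts stood above all controls for 23.7%. The ratio of the highest to the lowest library ranged from 2.36 for Slc4a9 to 22.8 for Trpv5, with a median of 6.29. Together the members took 0.423%, 0.203% and 0.555% of counted reads in the control libraries and 0.928%, 1.02% and 0.429% in the knockout libraries. Knockout replicate 3 thus held a smaller share than control replicate 3, and the ranges of the groups overlapped.

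**Figure D2:**
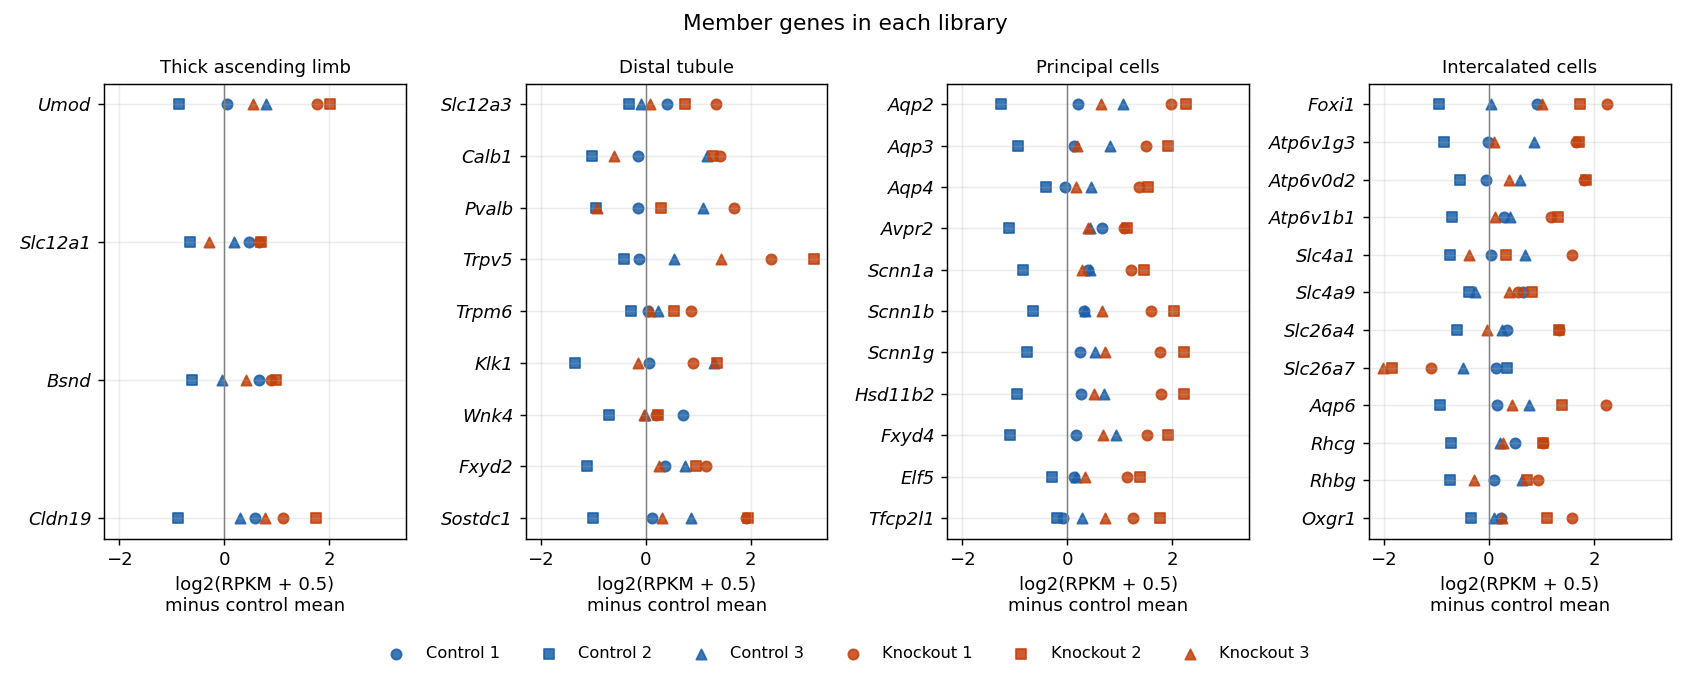
Each member in each library as log2(RPKM + 0.5) minus the mean of the 3 controls, with 1 panel per segment (blue, controls; orange, knockouts; circle, square and triangle, replicates 1, 2 and 3). Control replicate 2 lies farthest left of the controls for every gene except Slc26a7, and knockout replicate 3 lies left of the other knockouts throughout.

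In the thick ascending limb none of the 4 genes passed. Umod (chromosome 7, 119462708 to 119479262, GRCm38), which encodes uromodulin, the main protein of normal urine, stood at 470.4, 249.5 and 787 RPKM in controls and at 1546, 1828 and 662 RPKM in knockouts. The second control library was the lowest and the second knockout library the highest, and knockout replicate 3 fell between control replicates 1 and 3. The means were 502 ± 270.2 and 1345 ± 608 RPKM (SD, n = 3 libraries per group), a 2.68-fold ratio, and the log2 change of 1.45 (SE 0.53) had a 95% interval from 0.20 to 2.69 and an adjusted p of 0.116. Behind these values lay 34576 to 196425 reads per library, so counting error is small beside the spread between libraries. An antisense transcript overlaps Umod in GENCODE, and without a stated strand setting its reads cannot be told apart.

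Slc12a1, the furosemide-sensitive sodium-potassium-chloride cotransporter of the same cells, had much closer group means. Its levels were 139, 63.4 and 114 RPKM in controls and 159.6, 163 and 81.9 RPKM in knockouts, and its log2 change was 0.36 (SE 0.36, interval −0.49 to 1.21) with an adjusted p of 0.548. Both replicates 1 and 2 of the knockouts were above every control, but knockout replicate 3 was below 2 of the 3 controls, and the log2 change was 0.032 without control replicate 2. Bsnd, which encodes barttin, the accessory subunit of the kidney chloride channels, had 14.4, 5.67 and 8.64 RPKM in controls and 17.04, 18.3 and 12.1 RPKM in knockouts (log2 change 0.77, SE 0.32, adjusted p = 0.151). Cldn19, a claudin of the tight junctions that let magnesium and calcium pass, was the only loop gene whose groups did not overlap. It had 6.17, 1.92 and 4.98 RPKM in controls and 9.20, 14.5 and 7.17 RPKM in knockouts (log2 change 1.22, SE 0.41, adjusted p = 0.0899), and an antisense transcript overlaps it too. In this segment all 4 genes were highest in knockout replicate 2.

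Among the distal tubule genes, Trpv5 was higher and the other 8 did not pass. Trpv5 (chromosome 6, 41651661 to 41681224) forms the channel through which calcium enters distal tubule cells from the urine. It stood at 0.767, 0.534 and 1.52 RPKM in controls and at 6.70, 12.2 and 3.23 RPKM in knockouts, and the groups did not overlap. The means were 0.941 ± 0.516 and 7.37 ± 4.51 RPKM, a 7.83-fold ratio, and the log2 change was 2.34 (SE 0.45, interval 1.29 to 3.38, adjusted p = 0.0177). Only 73 to 154 reads per library stood behind the control values, against 490 to 1290 in knockouts. The call was lost without control replicate 1 or 2 and without knockout replicate 1 or 2 (adjusted p 0.0510 to 0.0547, log2 change 1.91 to 2.31).

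**Figure D3:**
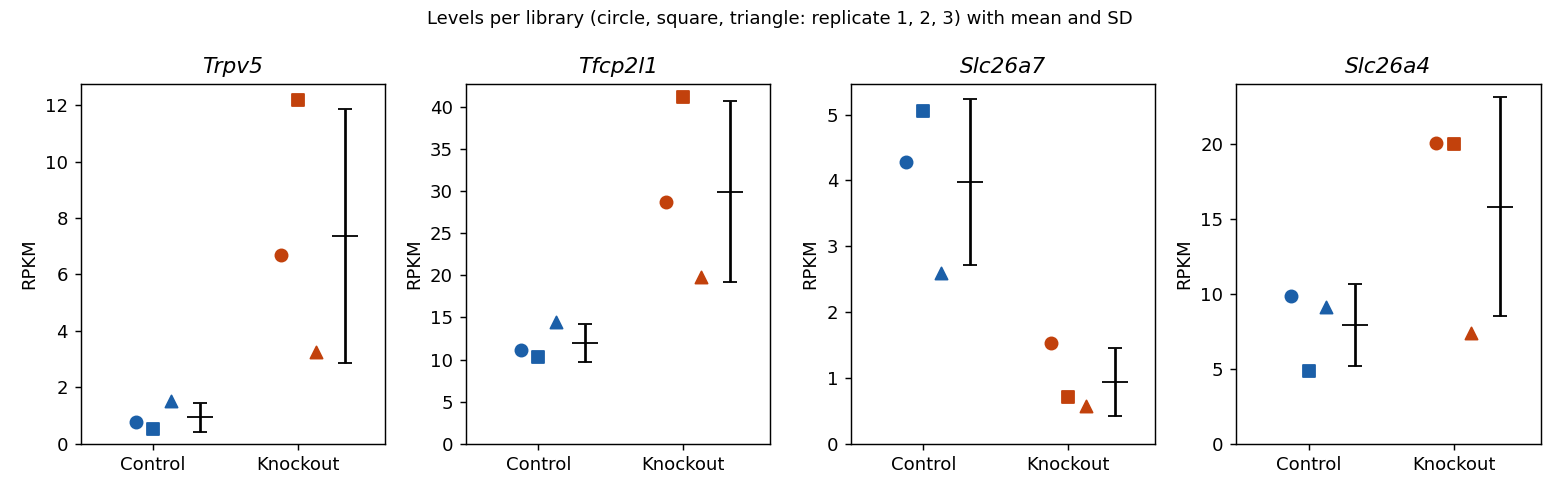
RPKM in each library (circle, square and triangle, replicates 1, 2 and 3) for the 3 members that passed the test and for Slc26a4, which did not, with the group mean and SD in black. Trpv5 and Tfcp2l1 are higher in all 3 knockouts than in any control and Slc26a7 is lower, while Slc26a4 in knockout replicate 3 lies within the controls.

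The other calcium and magnesium genes of the distal tubule did not pass, and their groups overlapped. Calb1, which encodes the cytosolic calcium carrier calbindin, had 20.0, 10.8 and 50.8 RPKM in controls and 60.1, 54.8 and 14.5 RPKM in knockouts (log2 change 0.69, SE 0.67, adjusted p = 0.531). Control replicate 3 stood close to knockout replicates 1 and 2, and knockout replicate 3 close to control replicates 1 and 2. The log2 change of Calb1 was 0.19 without control replicate 2 and 1.34 without knockout replicate 3. Pvalb, which encodes the calcium buffer parvalbumin, was at 6.32 to 27.7 RPKM in controls and 6.48 to 42.0 RPKM in knockouts (log2 change 0.35, SE 0.71, adjusted p = 0.776), and its sign turned without control replicate 2 or knockout replicate 1. Trpm6, a magnesium channel, was at 1.14 to 1.83 RPKM in controls and 1.603 to 3.09 RPKM in knockouts (log2 change 0.49, SE 0.24, adjusted p = 0.223).

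The salt transport genes of the distal tubule showed the same overlap. Slc12a3, the thiazide-sensitive sodium chloride cotransporter, stood at 119, 72.2 and 85.03 RPKM in controls and 229, 152 and 94.9 RPKM in knockouts. Here only knockout replicate 3 fell among the controls, and the log2 change was 0.72 (SE 0.33, adjusted p = 0.187). Wnk4, a kinase that regulates this cotransporter, was highest of all libraries in control replicate 1, with 57.2, 21.5 and 34.5 RPKM in controls and 40.3, 41.3 and 34.3 RPKM in knockouts (log2 change 0.14, SE 0.32, interval −0.60 to 0.88, adjusted p = 0.800). Its sign turned without control replicate 2, and an antisense transcript overlaps it.

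Fxyd2, the gamma subunit that tunes the sodium pump, was among the most abundant members, at 533, 189 and 686 RPKM in controls and 914, 797 and 491 RPKM in knockouts (log2 change 0.79, SE 0.50, adjusted p = 0.334). Klk1, the tissue kallikrein of the connecting tubule, was equally uneven, at 334, 126 and 790.3 RPKM in controls and 598, 826 and 289 RPKM in knockouts (log2 change 0.70, SE 0.67, adjusted p = 0.527). Mouse kallikreins form a family of near-identical genes, so the Klk1 value is uncertain. For both genes control replicate 3 exceeded knockout replicate 3. Without control replicate 2 the log2 change was 0.23 for Fxyd2 and 0.024 for Klk1, and without control replicate 3 it was 1.16 and 1.35. Sostdc1, a secreted inhibitor of BMP and Wnt signals made in the distal nephron, had 11.9, 5.21 and 20.3 RPKM in controls and 42.4, 43.4 and 13.6 RPKM in knockouts (log2 change 1.39, SE 0.57, adjusted p = 0.148).

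In principal cells Tfcp2l1 was the 1 of 11 genes that passed. Tfcp2l1 (chromosome 1, 118627923 to 118685168) encodes a grainyhead-like transcription factor required for collecting duct cell types. It stood at 11.2, 10.3 and 14.5 RPKM in controls and at 28.8, 41.2 and 19.9 RPKM in knockouts, with all knockouts above all controls. The means were 11.99 ± 2.24 and 29.95 ± 10.7 RPKM (2.50-fold; log2 change 1.24, SE 0.26, interval 0.63 to 1.85, adjusted p = 0.0244). The call was lost without control replicate 1 or 2 and without knockout replicate 1 or 2 (adjusted p 0.0670 to 0.0702), and a small nuclear RNA gene overlaps it on the same strand.

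Of the epithelial sodium channel subunits, Scnn1b and Scnn1g stood close to the threshold and Scnn1a did not. Scnn1b had 7.32, 3.46 and 7.39 RPKM in controls and 18.2, 25.1 and 9.35 RPKM in knockouts (2.90-fold; log2 change 1.42, SE 0.40, adjusted p = 0.0556). Scnn1g had 4.92, 2.21 and 6.10 RPKM in controls and 15.01, 20.9 and 7.01 RPKM in knockouts (3.24-fold; log2 change 1.56, SE 0.45, adjusted p = 0.0605). For both subunits the groups did not overlap, with knockout replicate 3 just above the controls. Both passed when that library was left out (adjusted p = 0.0188 and 0.0209). Neither passed when any other library was left out (adjusted p 0.0818 to 0.196 for Scnn1b and 0.0708 to 0.215 for Scnn1g). Scnn1a, the alpha subunit, was at 7.75 to 19.4 RPKM in controls and 17.3 to 40.0 RPKM in knockouts (log2 change 0.98, SE 0.42, adjusted p = 0.160), so its groups did overlap.

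Scnn1g and Scnn1b are neighbours on chromosome 7, and the Scnn1b to Scnn1g ratio of RPKM varied 1.31-fold over the 6 libraries. Scnn1g to Hsd11b2, a gene on chromosome 8, varied 1.31-fold too, so this was not particular to neighbours. That pair had the lowest spread of the 55 principal cell pairs. The genomic sequence before the starts of Scnn1g and Scnn1b is given because both kept nearly fixed proportions, beside that of Tfcp2l1, the principal cell gene that passed. The sequences are RefSeq windows on GRCm38.p6, plus strand, cut where an annotated gene begins, at chr7:121734229-121734419 for Scnn1g, chr7:121864788-121865037 for Scnn1b and chr1:118627695-118627922 for Tfcp2l1. None of the 3 holds the forkhead motif TGTTTAC on either strand, so no letters are in capitals.
Scnn1g: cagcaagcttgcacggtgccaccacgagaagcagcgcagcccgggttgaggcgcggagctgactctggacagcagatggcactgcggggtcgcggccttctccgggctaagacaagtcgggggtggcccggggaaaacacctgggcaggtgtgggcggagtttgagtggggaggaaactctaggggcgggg
Scnn1b: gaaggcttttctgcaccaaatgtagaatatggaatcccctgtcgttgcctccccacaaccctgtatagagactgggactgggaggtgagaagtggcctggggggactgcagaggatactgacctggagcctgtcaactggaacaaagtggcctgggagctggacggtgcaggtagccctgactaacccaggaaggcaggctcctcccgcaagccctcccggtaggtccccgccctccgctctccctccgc
Tfcp2l1: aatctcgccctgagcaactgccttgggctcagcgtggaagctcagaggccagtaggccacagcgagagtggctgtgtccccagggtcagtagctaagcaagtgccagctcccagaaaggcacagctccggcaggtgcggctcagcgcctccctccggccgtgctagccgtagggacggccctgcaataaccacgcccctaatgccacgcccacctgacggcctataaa

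The water channels of principal cells were high in the same libraries. Aqp2 (chromosome 15, 99579056 to 99584545), the channel that vasopressin moves to the apical membrane, stood at 67.2, 24.0 and 123 RPKM in controls and at 232, 281 and 91.3 RPKM in knockouts. The ratio of the means was 2.82-fold, but knockout replicate 3 lay below control replicate 3, and the log2 change of 1.63 (SE 0.63, interval 0.16 to 3.09) did not pass (adjusted p = 0.130). Aqp3, the basolateral exit for water, had 19.7, 9.09 and 31.9 RPKM in controls and 51.7, 68.8 and 20.5 RPKM in knockouts (log2 change 1.20, SE 0.54, adjusted p = 0.184). Aqp4, a second basolateral channel, was less abundant than Aqp3, at 0.974 to 2.15 RPKM in controls and 1.69 to 5.18 RPKM in knockouts (log2 change 1.03, SE 0.39, adjusted p = 0.125). Avpr2, the vasopressin receptor, had 6.74, 1.62 and 5.66 RPKM in controls and 9.16, 9.57 and 5.47 RPKM in knockouts (log2 change 0.87, SE 0.46, adjusted p = 0.246), and exons of Arhgap4 overlap it on the opposite strand.

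Hsd11b2, the enzyme that inactivates glucocorticoids and so leaves the mineralocorticoid receptor to aldosterone, stood at 28.4, 11.9 and 38.7 RPKM in controls and 82.4, 112 and 34.0 RPKM in knockouts. Its log2 change was 1.51 (SE 0.53, adjusted p = 0.104), and again only knockout replicate 3 was within the controls. Fxyd4, a sodium pump regulator of the collecting duct, was at 4.74 to 20.7 RPKM in controls and 17.4 to 41.7 RPKM in knockouts (log2 change 1.37, SE 0.52, adjusted p = 0.123). Elf5, an ETS transcription factor of principal cells, was the least abundant member, on 29, 14 and 30 reads in controls and 117, 135 and 59 reads in knockouts. Its groups did not overlap (0.119 to 0.343 against 0.451 to 1.48 RPKM), and its log2 change of 0.95 (SE 0.31, adjusted p = 0.0806) is understated by the pseudocount, and was 1.93 with voom on the recovered reads. All 11 principal cell genes were highest in knockout replicate 2 of the 3 knockouts.

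Among intercalated cell genes, 1 of 12 passed, and it was lower. Slc26a7 (chromosome 4, 14502430 to 14621946), an anion exchanger known from the basolateral side of acid-secreting cells of the outer medulla, stood at 4.28, 5.05 and 2.59 RPKM in controls and at 1.53, 0.714 and 0.572 RPKM in knockouts. All 3 knockouts were below all controls, and the means were 3.97 ± 1.26 and 0.938 ± 0.516 RPKM, 4.23-fold lower in knockouts. The log2 change was −1.65 (SE 0.31, interval −2.38 to −0.92, adjusted p = 0.0169), on 239 to 629 reads in controls and 69 to 164 in knockouts. Without control replicate 1 or knockout replicate 2 the adjusted p was 0.0543 and 0.0728, where 1.7% and 0.898% of all genes were lower. Control replicate 2, the lowest control for the other 35 members, was the highest control for Slc26a7. Podocyte markers were lower in the same knockout libraries (9 of 17, summed levels above), and their part in this result was not tested.

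The other anion exchangers of intercalated cells had positive estimates and did not pass. Slc26a4, which encodes pendrin, the apical chloride-bicarbonate exchanger of base-secreting cells, had 9.86, 4.83 and 9.11 RPKM in controls and 20.0, 20.0 and 7.38 RPKM in knockouts (log2 change 0.88, SE 0.42, adjusted p = 0.202). Slc4a9, an exchanger of the same cells, had 20.99, 10.04 and 10.9 RPKM in controls and 19.7, 23.7 and 17.4 RPKM in knockouts (log2 change 0.59, SE 0.27, adjusted p = 0.198). Slc4a1, the basolateral exchanger of acid-secreting cells, had 3.15, 1.63 and 5.21 RPKM in controls and 10.1, 3.95 and 2.21 RPKM in knockouts (log2 change 0.51, SE 0.53, adjusted p = 0.565). Slc4a1 was high in knockout replicate 1 alone, and its sign turned without that library. Slc4a1 is also the anion exchanger of red blood cells.

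Foxi1, the forkhead transcription factor that intercalated cells need, stood at 3.78, 0.679 and 1.85 RPKM in controls and at 10.3, 7.09 and 4.13 RPKM in knockouts. Its groups did not overlap, though control replicate 1 came within a short distance of knockout replicate 3 (log2 change 1.67, SE 0.49, adjusted p = 0.0642). Foxi1 passed without control replicate 1 or knockout replicate 3 (adjusted p = 0.0407 and 0.0450). It did not pass when any other library was left out (adjusted p 0.122 to 0.2015). The proton pump subunits of these cells, whose genes Foxi1 is known to activate, had overlapping groups. Atp6v1b1 had 18.1, 8.86 and 19.6 RPKM in controls and 34.2, 37.1 and 16.0 RPKM in knockouts (log2 change 0.88, SE 0.39, adjusted p = 0.178). Atp6v0d2 had 2.88, 1.88 and 4.80 RPKM against 11.8, 12.1 and 4.06 RPKM (log2 change 1.35, SE 0.45, adjusted p = 0.0887). In Atp6v1g3 the ranges were 2.70 to 9.92 and 5.68 to 18.3 RPKM (log2 change 1.16, SE 0.54, adjusted p = 0.195).

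RefSeq windows of 250 bases before a start were at hand for 24 of the 36 genes (27 windows, some genes having several starts), including 7 of the 12 intercalated cell genes. The forkhead motif TGTTTAC, searched on both strands, was in 3 of the 27 windows, or 11.1%, against 3.17% of all 32851 windows: those of Atp6v1b1, Slc12a1 and Avpr2. Annotated exon covered all 250 bases of the Avpr2 window, 95 of the Slc12a1 window and 27 of the Atp6v1b1 window. The difference between the shares was not tested. A match is a string of letters and not a shown binding site. The Atp6v1b1 window is given because it is the 1 intercalated cell gene with a match, at chr6:83742767-83742989, plus strand, with the motif in capitals, starting 98 bases before the annotated start.
Atp6v1b1: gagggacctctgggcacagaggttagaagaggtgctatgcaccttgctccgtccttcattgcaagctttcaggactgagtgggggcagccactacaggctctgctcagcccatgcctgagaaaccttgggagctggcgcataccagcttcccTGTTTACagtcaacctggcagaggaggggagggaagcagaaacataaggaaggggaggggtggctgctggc

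The ammonia channels and the remaining intercalated cell genes gave no further calls. Rhcg, which passes ammonia into the urine, had 25.7, 10.8 and 20.9 RPKM in controls and 37.3, 37.2 and 21.9 RPKM in knockouts (log2 change 0.78, SE 0.34, adjusted p = 0.172). Rhbg, its basolateral relative, was at 5.00 to 13.8 RPKM in controls and 7.03 to 17.1 RPKM in knockouts (log2 change 0.46, SE 0.42, adjusted p = 0.503). Exons of Gm38392, annotated as protein-coding, overlap Rhbg on the same strand. Aqp6, a channel of intracellular vesicles, had 9.24, 4.15 and 14.5 RPKM in controls and 40.7, 22.7 and 11.4 RPKM in knockouts (log2 change 1.36, SE 0.53, adjusted p = 0.135). Oxgr1, the receptor for alpha-ketoglutarate on intercalated cells, did not overlap between groups, with 2.41, 1.45 and 2.14 RPKM in controls and 6.89, 4.79 and 2.45 RPKM in knockouts (log2 change 0.98, SE 0.34, adjusted p = 0.0992). The margin between knockout replicate 3 and control replicate 1 was small for Oxgr1.

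The highest knockout library was not the same one for every cell type. Within the knockout group, replicate 2 was highest for all 4 loop genes and all 11 principal cell genes, but for 4 of 12 intercalated cell genes, where replicate 1 was highest for the other 8. Some of these margins were small. Replicates 1 and 2 stood at 20.04 and 20.03 RPKM for Slc26a4, 37.32 and 37.20 for Rhcg, and 11.83 and 12.06 for Atp6v0d2. Slc26a7, lower in knockouts, is among the 8. In the distal tubule replicate 1 was highest for 5 genes and replicate 2 for 4. Within the controls, replicate 3 was highest for 10 of 11 principal cell genes and 7 of 9 distal tubule genes, and replicate 1 for 3 of 4 loop genes. The median log2 deviation from the control mean in knockout replicates 1 to 3 was 1.5, 1.91 and 0.52 for principal cells, 1.46, 1.21 and 0.19 for intercalated cells, 1.34, 0.96 and 0.076 for the distal tubule and 1.01, 1.37 and 0.49 for the loop. In control replicate 2 these medians were −0.83, −0.71, −0.95 and −0.76, so the fall in that library was of similar size in all 4 segments.

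**Figure D4:**
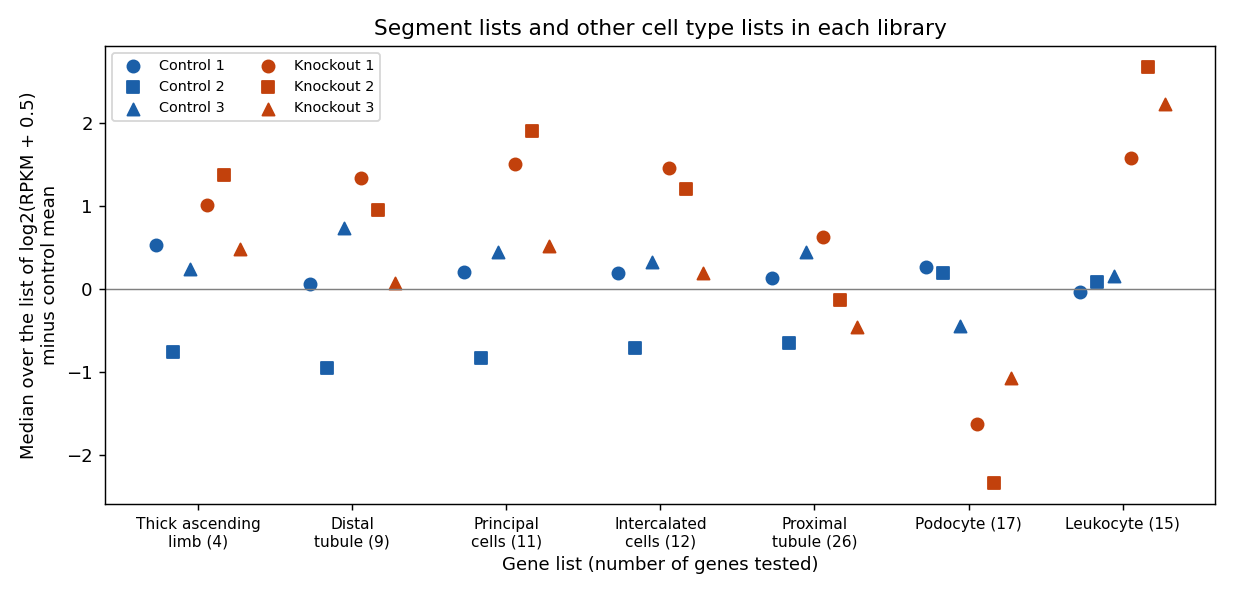
Median over each gene list of log2(RPKM + 0.5) minus the mean of the controls, 1 point per library (blue, controls; orange, knockouts; circle, square and triangle, replicates 1, 2 and 3), for the 4 segments and for lists of other cell types. Control replicate 2 is lowest of the controls in the 4 segments and in the proximal tubule list, but not in the podocyte and leukocyte lists.

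Proximal tubule genes, from the segment upstream, had the same low libraries. Control replicate 2 was the lowest control for 25 of 26 of them and knockout replicate 3 the lowest knockout for 24. Their median log2 change was −0.029, with 3 higher and 2 lower, and their summed level was 5841 to 14608 RPKM in controls and 5587 to 13364 RPKM in knockouts, with no gene at 0. In knockout replicates 1 to 3 their median deviation was 0.63, −0.13 and −0.45, so replicate 2, the highest knockout for principal cells, was near the control mean for the proximal tubule. The difference between the lists was not tested. The proximal tubule score was the mean log2 level of the 26 genes in these same 6 libraries, so it may itself depend on group. As a covariate it also left fewer degrees of freedom. With this score in the fit, the 13 higher members included Umod (log2 change 1.25, adjusted p = 0.0339), Aqp2 (1.38, adjusted p = 0.0323) and Aqp6 (1.12, adjusted p = 3.09e-03). None of these 3 genes passed in the fit of all 6 libraries without the score. Umod also passed without knockout replicate 3 (log2 change 1.89, adjusted p = 0.0462), but not without any other library (adjusted p 0.0862 to 0.345). Tubule injury genes and leukocyte markers were also higher in knockouts. Their median deviations in knockout replicates 1 to 3 were 3.32, 4.30 and 2.98 for injury genes and 1.58, 2.68 and 2.23 for leukocyte markers. Knockout replicate 3 was the lowest knockout for 12 of 16 injury genes and 0 of 15 leukocyte markers. The part of either list in the members' changes was not tested.

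The ratio of 2 members within a library does not change when both move by the same factor. Over all pairs of a segment, the ratio of the highest to the lowest library had a median of 1.94 in principal cells (55 pairs), 2.64 in the loop (6 pairs), 2.84 in intercalated cells (66 pairs) and 3.86 in the distal tubule (36 pairs). Some pairs were nearly constant, and those given next are among the least variable of their segments. Scnn1b to Scnn1g was 1.49, 1.57 and 1.21 in controls and 1.22, 1.20 and 1.33 in knockouts, while each gene alone varied 7.24-fold and 9.46-fold over the libraries. Atp6v1b1 to Slc26a4 was 1.83, 1.84 and 2.15 in controls and 1.70, 1.85 and 2.17 in knockouts. The 2 pump subunits Atp6v0d2 and Atp6v1g3 also overlapped, at 0.556, 0.695 and 0.484 in controls and 0.673, 0.660 and 0.714 in knockouts.

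Other ratios, picked after their values were seen, did not overlap between the groups. Umod to Slc12a1 was 3.39, 3.94 and 6.89 in controls and 9.69, 11.2 and 8.09 in knockouts, so that in knockouts Umod stood higher relative to the cotransporter of the same cells. Trpv5 to Calb1 was 0.0383, 0.0495 and 0.0299 in controls and 0.111, 0.222 and 0.223 in knockouts. Slc26a7 to Slc26a4 was 0.434, 1.05 and 0.284 in controls and 0.0763, 0.0357 and 0.0775 in knockouts. Aqp2 to Aqp3 was 3.41, 2.64 and 3.85 in controls and 4.49, 4.08 and 4.45 in knockouts, a smaller separation. Trpv5 to Slc12a3 was 0.00645 to 0.0179 in controls and 0.0293 to 0.0800 in knockouts. These 5 ratios were singled out because their groups did not overlap, out of 18 compared between groups. The spread of every pair within a segment had also been computed. These 5 ratios are therefore a description with no test.

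**Figure D5:**
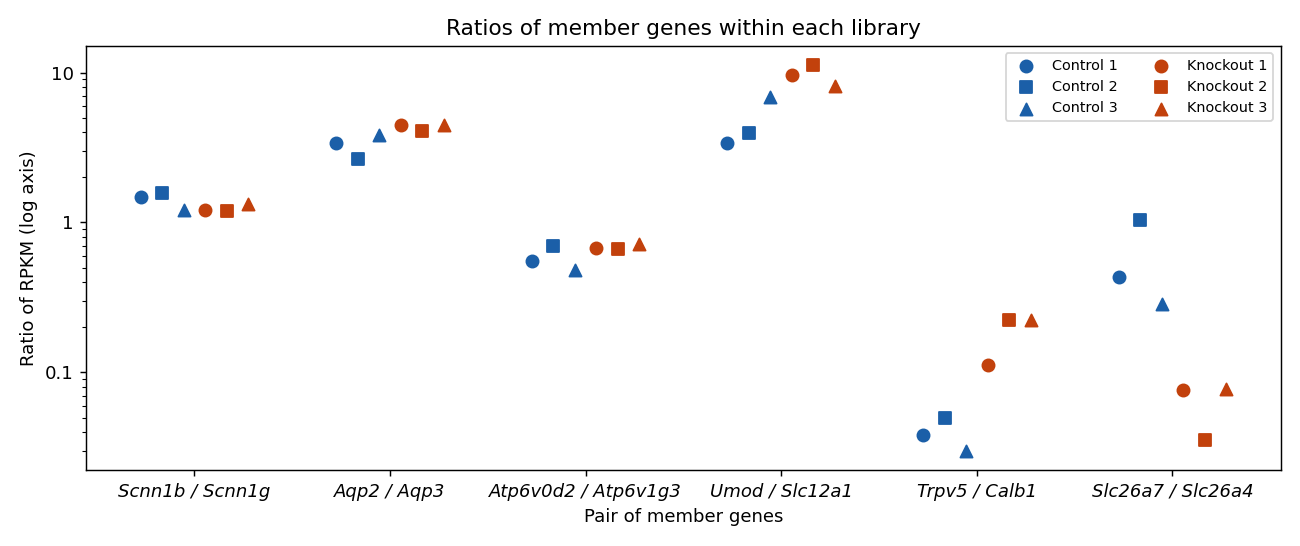
Ratios of RPKM between 2 members within each library, on a log axis (blue, controls; orange, knockouts; circle, square and triangle, replicates 1, 2 and 3). Scnn1b / Scnn1g and Atp6v0d2 / Atp6v1g3 overlap between groups, while Aqp2 / Aqp3, Umod / Slc12a1 and Trpv5 / Calb1 are higher and Slc26a7 / Slc26a4 lower in all knockouts.

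A further list held distal nephron genes outside the 36. Of 30 genes listed 29 were in the table under that symbol and tested. Of these 29 genes 6 were higher and 0 lower, against 9.98% higher and 3.48% lower over all genes. Their median log2 change was 0.63, against 0.097 over all genes. The higher ones were Cldn4, Cldn8 and Cldn16, claudins of the distal nephron, Casr, the calcium-sensing receptor, Kcnj10, a basolateral potassium channel, and Slc14a2, a urea transporter of the collecting duct and thin limb. Cldn4 stood at 2.40, 1.51 and 5.83 RPKM in controls and at 30.7, 62.4 and 21.4 RPKM in knockouts (log2 change 3.39, SE 0.50, adjusted p = 7.43e-03). Slc14a2 had 4.68, 5.64 and 2.72 RPKM in controls and 12.05, 23.3 and 13.4 RPKM in knockouts (1.78, SE 0.31, adjusted p = 0.0130), and was lowest in control replicate 3 and not in replicate 2. Cldn16, Casr and Cldn8 had log2 changes of 2.02, 1.65 and 1.68 (adjusted p = 0.0171, 0.0182 and 0.0224). Kcnj10 followed at 1.53 (adjusted p = 0.0477).

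Proton pump subunits made in most cells were listed beside those of intercalated cells. Of 15 listed 14 were tested (Atp6v0c stayed below the filter, at 0 to 0.04 RPKM), with 2 higher (Atp6v1b2 and Atp6v1c1, against 9.98% of all genes), 0 lower and a median log2 change of 0.39. Atp6v1b1 relative to Atp6v1b2, the B subunit made in most cells, was 0.333, 0.204 and 0.302 in controls and 0.311, 0.323 and 0.213 in knockouts, so the groups overlapped (exact permutation p = 0.9). Control replicate 2 and knockout replicate 3 were the low libraries for this ratio too.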

How the data were processed

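RNA sequencing of isolated glomeruli gave 6 libraries, 3 per group, with groups and replicate numbers from the sample titles. The authors deposited 1 table of RPKM values, reads scaled to gene length and to counted reads. The submitters' processing notes name mm10, FastQC, STAR, edgeR and featureCounts, without versions, and the sources used here give no annotation or strand setting. Among its rows, 27 carry a date in place of a symbol and hold 0.232% to 0.269% of counted reads, and they were left out. RPKM values were whole multiples of 1 read in all 19495 rows above 0 (tolerance 0.001 read), which gave the reads quoted, and such reads cover counting error only. A common factor in length and reads can be missed, and 99.6% to 99.7% of counted reads were recovered.

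The 13912 genes whose mean reached 0.5 RPKM were tested with limma 3.58.1 in R 4.3.3 on log2(RPKM + 0.5), with a mean-variance trend, two-sided, Benjamini-Hochberg adjustment over all of them and a threshold of 0.05. The method was tested on simulated data in which each gene varied independently, whereas the members here shared their low libraries. A log2 change is knockout minus control on that scale, which understates low genes, and a fold is a ratio of mean RPKM. Gene positions and sequences before gene starts are RefSeq's on GRCm38.p6, which is mm10, and overlapping exons are from GENCODE M21.

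The 36 genes and all lists were chosen with earlier results of these data known. Library values are given for members past the threshold and, per segment, for the 3 with the smallest p and the 3 with the highest control mean, and for others added afterwards. Of the further distal nephron list, those past the threshold are named. Ca2 and Adgre1 were listed but have no row under that symbol.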

Additional observations from a re-analysis of the deposited data

How the results depend on the processing

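Pseudocounts of 0.1 and 1, no filter, a filter at 2 RPKM, median scaling, quantile normalization, no trend and voom with library totals (voom chosen after seeing the data) each left 2 members higher and 1 lower, and no median of the members or of a segment moved by more than 1 SD between libraries under any setting. The settings named here called 6.1% to 9.93% of all genes higher and 1.73% to 5.74% lower. A filter at 2 RPKM dropped 2 members. The proximal tubule covariate gave 13 of 36 members higher, against 13.9% of all genes (1931 of 13912). Without 1 library, higher members numbered 0 to 15 and lower members 0 to 1. In those fits 3.43% to 10.8% of all genes were higher and 0.898% to 4.45% lower. Klf4 had a log2 change of −0.12 under median scaling and −0.0098 under quantile normalization, and −0.35 to 0.24 without 1 library. Without 1 library, log2 changes spanned −0.32 to 0.99 for Pvalb (−0.12 without control replicate 2), −0.20 to 0.49 for Wnk4 and −0.027 to 0.95 for Slc4a1. Where a setting left out a library, fewer samples entered the fit; the cause of the other changes was not tested. Fits with TMM factors, edgeR and DESeq2 on recovered reads were not run, since the deposited unit is RPKM.

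Replicate numbers appear in both groups, and the titles do not say whether they pair the libraries. Deviations of same-numbered libraries from their group means correlated at 0.175, −0.215 and −0.461, and those of control replicate 2 and knockout replicate 3 at 0.504. With 3 libraries per group, such correlations cannot exclude a pairing by number. With the replicate number as a block 0 members were higher and 1 lower, against 4.54% and 1.29% of all genes. With 3 libraries per group, members of few reads such as Elf5 (14 to 30 in controls) carry the largest counting error.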
